A study of Mus musculus with 20 samples.

Results

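The 33 genes described here encode factors that build ribosomes in the nucleolus, together with 3 metabolic enzymes that are classic targets of the Myc transcription factors. They were listed by name for these functions and kept where a probe set of the array carries their symbol alone, and all 33 of the listed genes were found among the 18193 genes measured. RNA from progenitor lines of the mouse brain was hybridised to 20 single-colour Affymetrix arrays, 5 in each of 4 groups. The groups were embryonic progenitors after transduction, which the labels call a genetic modification, control embryonic progenitors, transformed postnatal progenitors, and control postnatal progenitors. The labels name neither the introduced sequence nor the transforming agent, and give no age, strain or brain region. The labels give the control and the modified lines of an age the same letter and the same numbers, 1 to 5, without saying what a shared number means. Whether lines of a group were separate cultures is not stated, so each p-value covers the spread among these samples and no more, and that spread may be technical.

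Ribosome production begins when RNA polymerase I copies the ribosomal DNA into a long precursor RNA. Small nucleolar particles then methylate and pseudouridylate that RNA, and 2 sets of assembly factors cut and fold it into the small and the large ribosomal subunit. Myc and its neural relative Mycn bind E-box sequences in many of these genes as dimers with Max, and ribosome production is one of their best known outputs in growing progenitors and in brain tumours.

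The values are signals, linear intensities in arbitrary units, and changes are given as differences of log2(signal + 16) with the standard error of a limma fit over all 20 arrays. A gene passed at a Benjamini-Hochberg adjusted p under 0.05, and 2-fold changes are counted among those that passed. Every one of the 33 genes lay above background on all 20 arrays, the lowest signal being 475 for Rrp12. The background level of an array was between 88 and 216. Glial progenitor markers were checked first. The transcription factors Olig2 and Sox2 were above background on all 20 arrays. Sox10 and Pdgfra averaged 25251 and 31661 in transformed postnatal cells and 25363 and 47465 in their control. In transduced embryonic cells they averaged 189 and 596, against 2601 and 7629 in embryonic control, and Sox10 was above background on only 2 of the 5 transduced arrays. Other markers of this list shifted in the postnatal cells. Sox8 averaged 1771 in transformed cells and 13739 in control, Nkx2-2 4314 and 19780, and Nes, which went up, 6855 and 3184. The microglial gene C1qa and the endothelial gene Pecam1 were below background on every array, but other genes of their lists were not. Microglial Csf1r was above background on all 20 arrays, with group means from 569 to 862. Endothelial Kdr was above it on all 5 transduced and all 5 transformed arrays, and on 3 arrays of each control group. Postnatal control arrays 4 and 5 stood apart from arrays 1 to 3 in proliferation genes, so the counts of the 33 genes and of the other lists in the postnatal response are also given without them.

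In the postnatal cells the ribosome production genes fell almost as a block. Of the 33 genes, 28 were lower in transformed than in control cells and 2 were higher, against 22.0% of all 18193 genes lower and 20.3% higher. The median change was -0.52 over the 33 genes and 0.00 over all genes. Cad, Gnl3, Nolc1 and Dkc1 fell by at least 2-fold, which 6.40% of all genes did. For 25 of the 33, every transformed array lay below every control array, against 15.9% of all genes. In these bulk samples fewer cells of a type and less RNA per cell cannot be told apart.

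**Figure D1:**
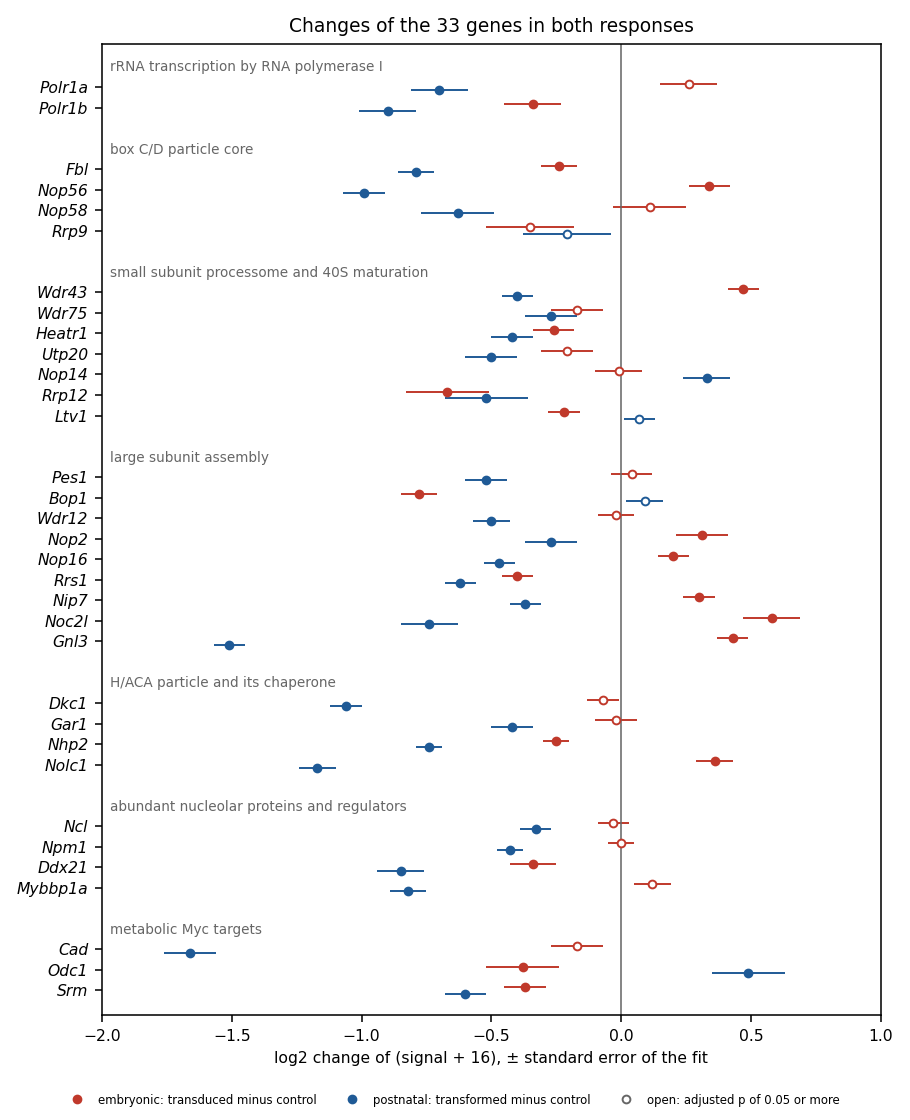
Log2 change of each of the 33 genes, grouped by role, with the standard error of the fit as bars. Red points are transduced minus control embryonic cells and blue points transformed minus control postnatal cells, and open points did not pass. Blue points lie left of 0 for 29 genes, while red points fall on both sides, 20 left and 13 right.

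Windows of 300 bases around the transcript start, from RefSeq on build GRCm38.p6, were available for 27 of the 33 genes. Shown are those of the 4 genes that fell by at least 2-fold in the postnatal cells, and those of Mybbp1a and Wdr43 as examples with an E-box. Each runs from 250 bases before the start to 50 after it, on the strand of the gene, and capitals mark CACGTG, the canonical E-box, and CACGCG or its reverse complement CGCGTG. The windows are Gnl3 (chr14:31019082-31019381, minus strand), Cad (chr5:31054530-31054829, plus), Nolc1 (chr19:46075597-46075896, plus), Dkc1 (chrX:75095604-75095903, plus), Mybbp1a (chr11:72441077-72441376, plus) and Wdr43 (chr17:71615965-71616264, plus).
Gnl3: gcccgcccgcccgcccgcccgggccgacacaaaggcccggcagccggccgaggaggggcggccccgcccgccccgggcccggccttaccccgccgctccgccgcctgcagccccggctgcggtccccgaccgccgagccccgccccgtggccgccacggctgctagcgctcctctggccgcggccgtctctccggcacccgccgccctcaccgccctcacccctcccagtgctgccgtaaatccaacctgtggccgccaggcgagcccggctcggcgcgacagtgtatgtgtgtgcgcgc
Cad: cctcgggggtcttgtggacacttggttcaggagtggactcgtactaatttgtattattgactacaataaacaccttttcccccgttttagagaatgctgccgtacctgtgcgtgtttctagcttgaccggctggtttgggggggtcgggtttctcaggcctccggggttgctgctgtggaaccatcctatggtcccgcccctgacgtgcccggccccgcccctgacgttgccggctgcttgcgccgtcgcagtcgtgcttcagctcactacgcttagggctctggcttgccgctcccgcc
Nolc1: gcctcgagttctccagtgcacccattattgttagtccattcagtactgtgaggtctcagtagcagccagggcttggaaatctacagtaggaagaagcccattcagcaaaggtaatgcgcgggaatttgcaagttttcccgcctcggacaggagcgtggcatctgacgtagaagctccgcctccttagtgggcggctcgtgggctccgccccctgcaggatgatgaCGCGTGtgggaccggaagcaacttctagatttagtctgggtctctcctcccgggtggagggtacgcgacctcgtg
Dkc1: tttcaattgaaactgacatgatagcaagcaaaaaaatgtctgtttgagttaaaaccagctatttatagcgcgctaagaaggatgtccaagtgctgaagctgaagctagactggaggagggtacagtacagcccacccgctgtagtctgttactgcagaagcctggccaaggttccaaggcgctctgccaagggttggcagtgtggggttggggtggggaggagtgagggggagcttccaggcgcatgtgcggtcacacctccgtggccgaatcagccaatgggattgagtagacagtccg
Mybbp1a: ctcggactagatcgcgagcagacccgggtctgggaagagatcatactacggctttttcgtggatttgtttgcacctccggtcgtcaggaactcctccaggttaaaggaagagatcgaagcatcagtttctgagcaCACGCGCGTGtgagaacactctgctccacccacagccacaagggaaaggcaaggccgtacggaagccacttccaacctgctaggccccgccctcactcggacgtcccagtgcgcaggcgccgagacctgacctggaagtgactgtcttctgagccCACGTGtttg
Wdr43: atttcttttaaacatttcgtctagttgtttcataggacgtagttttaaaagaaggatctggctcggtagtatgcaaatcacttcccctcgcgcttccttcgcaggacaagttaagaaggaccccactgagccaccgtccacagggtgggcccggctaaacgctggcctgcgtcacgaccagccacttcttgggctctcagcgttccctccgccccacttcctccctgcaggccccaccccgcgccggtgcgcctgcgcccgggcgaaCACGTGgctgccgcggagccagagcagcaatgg

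CACGTG reads the same on both strands, and it stood in the windows of 6 of the 27 genes (22.2%), against 8.09% of the 27025 genes of the table and 7.15% of its 32851 windows. The 6 genes were Wdr43, Utp20, Ltv1, Pes1, Nop2 and Mybbp1a. Counted with the first transcribed base as 1, the motif began at position 3 in Pes1, 18 in Wdr43, 29 in Ltv1, 38 in Utp20 and 41 in Mybbp1a, and 60 bases before the start, at -60, in Nop2. The 6-base CACGCG, searched on both strands, stood in the windows of 9 of the 27 genes (33.3%), against 10.49% of all genes and 9.27% of all windows. In Mybbp1a a copy on each strand overlaps, at positions -115 and -111. The letters of neither motif stood in the windows of Gnl3, Cad and Dkc1. The 6 genes with an E-box did not move alike: in the postnatal cells Mybbp1a (-0.82), Pes1 (-0.52), Utp20 (-0.50), Wdr43 (-0.40) and Nop2 (-0.27) fell, while Ltv1 (0.07) did not pass.

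The largest falls were in a nucleotide enzyme and 3 nucleolar proteins. Cad, the multifunctional enzyme that starts pyrimidine synthesis, had signals of 1572, 1439, 1165, 1405 and 1389 on the transformed arrays, against 4917, 5505, 4484, 3600 and 3884 on the postnatal control arrays. It fell by 1.66 ± 0.10 on the log2 scale, a 3.16-fold difference (limma adjusted p = 1.23e-11). Gnl3, or nucleostemin, a nucleolar GTPase of stem and progenitor cells that takes part in making the large subunit, had 6218, 5325, 5882, 6009 and 5690 in transformed cells, against 15054, 17552, 17007, 16819 and 16519 in control. The fall was 1.51 ± 0.06, 2.84-fold (adjusted p = 1.34e-14), and the 2 groups lay far apart with little spread inside either.

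Nolc1, a chaperone of small nucleolar particles, had 4208, 4425, 4697, 4366 and 4049 in transformed cells, against 8333, 10998, 10150, 9659 and 10164 in control, a change of -1.17 ± 0.07 (2.26-fold; limma adjusted p = 3.39e-12). Dkc1, or dyskerin, the pseudouridine synthase of the box H/ACA particles and a part of telomerase, had 6678, 5807, 6414, 6312 and 6132 in transformed cells. Its control arrays read 13202, 14540, 13146, 12085 and 12685, and the change was -1.06 ± 0.06 (2.09-fold; adjusted p = 1.16e-12). Both groups of both genes were separate. The other box H/ACA proteins fell by less, Nhp2 by 0.74 ± 0.05 and Gar1 by 0.42 ± 0.08, so that all 4 genes of this group were lower. Gar1 is the member of the group whose arrays overlapped, with 7194 to 9271 in transformed cells and 9006 to 13178 in control.

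**Figure D2:**
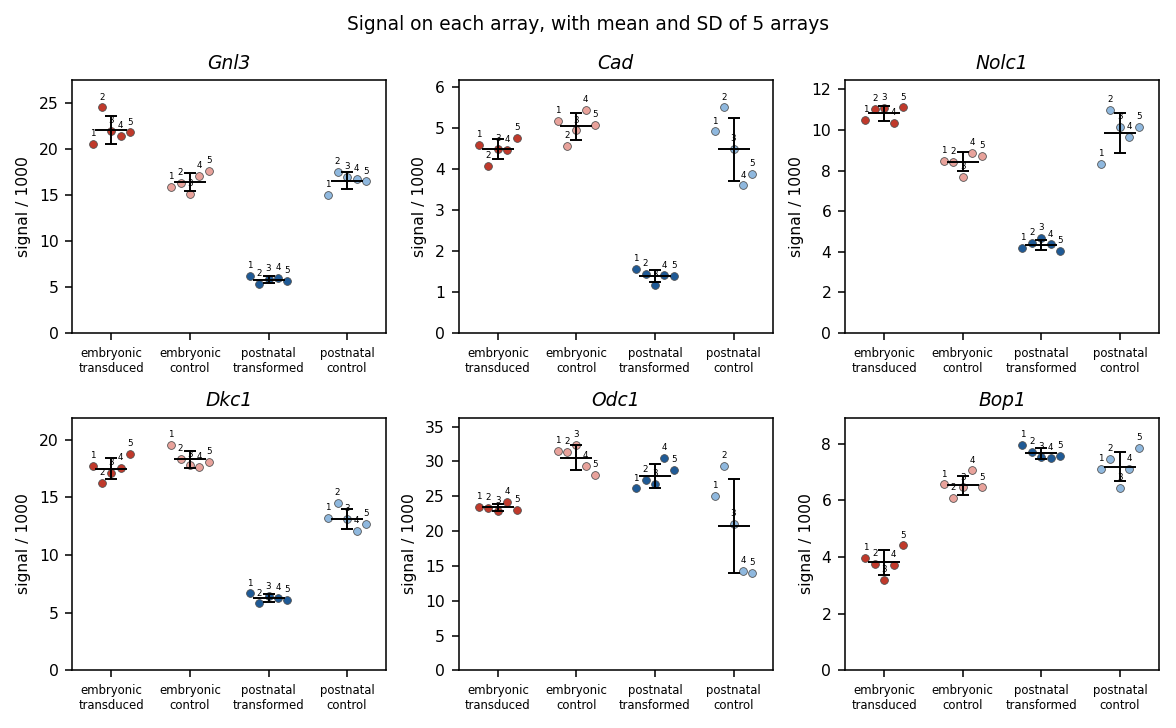
Signal on each array for 6 genes, with the mean and SD of 5 arrays as black marks and the array number above each point. Gnl3, Cad, Nolc1 and Dkc1 lie lower on all 5 transformed arrays than on any other array, Odc1 splits the postnatal control arrays, and Bop1 is low on the transduced embryonic arrays.

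Both measured RNA polymerase I subunits among the 33 fell. Polr1b, the second largest subunit, averaged 1854 ± 96.1 in transformed cells and 3515 ± 702 in control (SD, n = 5 each), a change of -0.90 ± 0.11. Polr1a, the largest, averaged 1575 ± 195 in transformed cells and 2578 ± 412 in control, a change of -0.70 ± 0.11.

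The box C/D particle, which carries the RNA 2'-O-methyltransferase fibrillarin, lost signal in 3 of its 4 genes. Nop56 had 8202, 7313, 7520, 6691 and 6643 in transformed cells, against 14292, 16536, 14772, 12651 and 14236 in control (-0.99 ± 0.08; limma adjusted p = 7.63e-10). Fbl, fibrillarin itself, fell by 0.79 ± 0.07 and Nop58 by 0.63 ± 0.14. Transformed array 2 reached 4007 for Nop58, just above the lowest control array at 3992. Rrp9, which joins the U3 particle, averaged 2203 ± 374 in transformed cells and 2593 ± 643 in control and did not pass (-0.21 ± 0.17; adjusted p = 0.369).

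Of the 7 small subunit factors 5 fell, all by between 0.27 and 0.52: Rrp12 (-0.52), Utp20 (-0.50), Heatr1 (-0.42), Wdr43 (-0.40) and Wdr75 (-0.27). Nop14, a component of the small subunit processome, was higher, with 4630, 3976, 4347, 3695 and 4095 in transformed cells against 3452, 3659, 2725, 3126 and 3613 in control (0.33 ± 0.09; limma adjusted p = 0.00594). Its groups did not overlap. Ltv1, needed for late maturation of the small subunit, averaged 8678 ± 238 in transformed cells and 8272 ± 639 in control and did not pass (0.07 ± 0.06; adjusted p = 0.417). Without postnatal control arrays 4 and 5 the change of Wdr75 was -0.26 and no longer passed.

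Of the 9 large subunit factors 8 fell. After Gnl3 came Noc2l (-0.74 ± 0.11), Rrs1 (-0.62 ± 0.06), Pes1 (-0.52 ± 0.08), Wdr12 (-0.50 ± 0.07), Nop16 (-0.47 ± 0.06), Nip7 (-0.37 ± 0.06) and the RNA methyltransferase Nop2 (-0.27 ± 0.10). Pes1, Bop1 and Wdr12 form one complex, named PeBoW after them, and its members differed. Pes1 had 8896, 7897, 7627, 7742 and 7381 in transformed cells, all below the 10107, 10098, 11915, 11398 and 13546 of control. Bop1 had 7960, 7713, 7534, 7508 and 7564 in transformed cells, inside the control range of 6438 to 7845 but for the first array, and did not pass (0.09 ± 0.07; limma adjusted p = 0.350). The further probe set of each gene, Pes1 at 0.19 and Bop1 at -0.48, ran the other way without passing, and with the mean of its probe sets Pes1 was at -0.17 and no longer passed. Without postnatal control arrays 4 and 5 Nop2 (-0.24) did not pass.

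The abundant nucleolar proteins fell in all 4 cases. The RNA helicase Ddx21 changed by -0.85 ± 0.09 and Mybbp1a, a nucleolar regulator that binds Myb, by -0.82 ± 0.07. The histone chaperone Npm1, or nucleophosmin, had 63482, 61747, 61939, 62815 and 58853 in transformed cells, against 89075, 82474, 83696, 77551 and 84837 in control (-0.43 ± 0.05; limma adjusted p = 2.08e-07). Ncl, nucleolin, changed by -0.33 ± 0.06. Both of these bright genes were separate between the groups.

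The metabolic targets split. Srm, spermidine synthase, fell by 0.60 ± 0.08. Odc1, ornithine decarboxylase, the rate-limiting enzyme of polyamine synthesis and a textbook Myc target, had 26139, 27362, 26815, 30557 and 28784 in transformed cells, against 24993, 29356, 20990, 14299 and 13993 in control. Its rise of 0.49 ± 0.14 (limma adjusted p = 0.00687) came with overlapping groups and low control arrays 4 and 5. With those 2 arrays left out the change was 0.16 and did not pass. Nop14 (0.34) was then the 1 gene of the 33 that rose.

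Control arrays 4 and 5 allow a comparison within one group. The median of the 33 genes on postnatal control arrays 1 to 5, as log2 distance from the embryonic control mean, was -0.12, 0.08, -0.09, -0.03 and -0.03. Over 31 proliferation genes the same median was -0.32, -0.24, -0.21, -2.96 and -3.04. On the 5 transformed arrays the 33 genes lay between -0.64 and -0.56 and the proliferation genes between -2.81 and -2.55. By these medians arrays 4 and 5 read like the transformed arrays in proliferation genes. In ribosome production genes their medians read like those of control arrays 1 to 3. Single genes among the 33 moved both ways on the 2 arrays. Cad had 3600 and 3884, against 4484 to 5505 on arrays 1 to 3, and Dkc1 12085 and 12685, against 13146 to 14540. Srm had 34358 and 35608, against 25952 to 32865, and Rrs1 27463 and 26394, against 22933 to 25632. Outside the 33 genes the 2 arrays differed too, with Myc at 19654 and 21985, against 11245 to 13014. The part of cycling in the changes of the 33 genes was not tested.

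On postnatal control arrays 1 to 5, 27, 28, 28, 28 and 29 of the 33 genes lay above all 5 transformed arrays, against 34.3%, 32.4%, 31.5%, 31.2% and 32.9% of all genes. Mki67, which marks cycling cells, had 3848 to 5403 on the transformed arrays, against 37266, 34816, 35822, 5929 and 4351 on the control arrays. Without control arrays 4 and 5, 26 of the 33 genes fell and 1 rose, against 22.2% and 21.1% of all genes, and 5 fell by at least 2-fold, against 7.26%. Their median was then -0.54. With all arrays 26 of the 31 proliferation genes fell in the postnatal response, against 22.0% of all genes, with a median of -1.37. Without control arrays 4 and 5 all 31 fell, each by at least 2-fold, with a median of -2.35. Their summed signal ran from 108786 to 129244 on transformed and from 111568 to 626491 on control arrays. Cad was the 2-fold gene most affected, with a change of -1.82 without the 2 arrays.

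**Figure D3:**
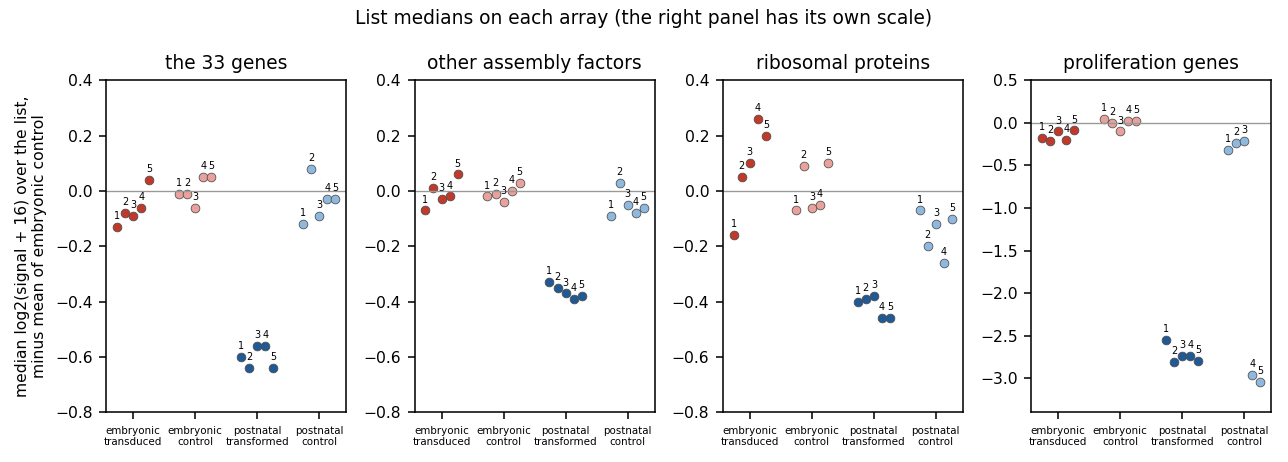
Median log2(signal + 16) over each gene list on each array, minus the mean of embryonic control, with array numbers. In the left panel the 5 transformed arrays lie between -0.64 and -0.56, below all postnatal control arrays, while in the right panel postnatal control arrays 4 and 5, at -2.96 and -3.04, lie beside the transformed arrays.

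In the embryonic cells there was no common direction. Of the 33 genes 11 were lower and 8 higher in transduced than in control cells, and 14 did not pass, against 18.0% of all genes lower and 21.3% higher. The median change was -0.03, against 0.08 over all genes, and no gene reached 2-fold on its brightest probe set. Further probe sets of Ncl and Pes1, given below, fell by more than 2-fold. Per array, the median of the 33 genes ran from -0.13 to 0.04 in transduced cells and from -0.06 to 0.05 in control.

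Of the 8 genes that rose, 5 were large subunit factors. Noc2l, a nucleolar protein that also binds histones, had 5199, 5849, 5260, 5368 and 4057 in transduced cells, against 3534, 3269, 3097, 3598 and 3578 in control (0.58 ± 0.11; limma adjusted p = 0.000148). Gnl3 had 20564, 24572, 22019, 21451 and 21849 in transduced cells, against 15932, 16321, 15115, 17071 and 17617 in control (0.43 ± 0.06; adjusted p = 4.34e-06). Both were separate between groups. Nop2 (0.31 ± 0.10), Nip7 (0.30 ± 0.06) and Nop16 (0.20 ± 0.06) rose too. Outside this group Wdr43 rose by 0.47 ± 0.06, Nolc1 by 0.36 ± 0.07 and Nop56 by 0.34 ± 0.08.

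The largest fall was in Bop1, which had 3979, 3759, 3181, 3736 and 4409 in transduced cells, against 6560, 6088, 6459, 7056 and 6454 in control (-0.78 ± 0.07; limma adjusted p = 1.25e-08). Its PeBoW partners Pes1 (0.04 ± 0.08) and Wdr12 (-0.02 ± 0.07) did not pass. For Bop1 and Pes1 the direction differed between probe sets, and the mean of all probe sets reversed the sign of both. Rrp12, needed in yeast for the export of both subunits, fell by 0.67 ± 0.16, with 1 transduced array, the fourth, at 475 and the others between 743 and 872. Rrs1 (-0.40), Odc1 (-0.38), Srm (-0.37), Polr1b (-0.34), Ddx21 (-0.34), Heatr1 (-0.26), Nhp2 (-0.25), Fbl (-0.24) and Ltv1 (-0.22) fell by less. Odc1 passed narrowly, and its call was lost in 11 of 31 alternatives, among them the replicate block, no trend and the leaving out of any of 7 single arrays (embryonic control 1, 2 or 3, transduced 1, 2, 3 or 5). Polr1a, with 0.26 ± 0.11, did not pass although its groups did not overlap (adjusted p = 0.0742). It passed in 4 of 31 alternatives, among them the compared groups only and the leaving out of postnatal control arrays 4 and 5. The very bright genes Npm1 (0.00 ± 0.05) and Ncl (-0.03 ± 0.06) did not pass, though a further probe set of Ncl, given below, was lower.

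**Figure D4:**
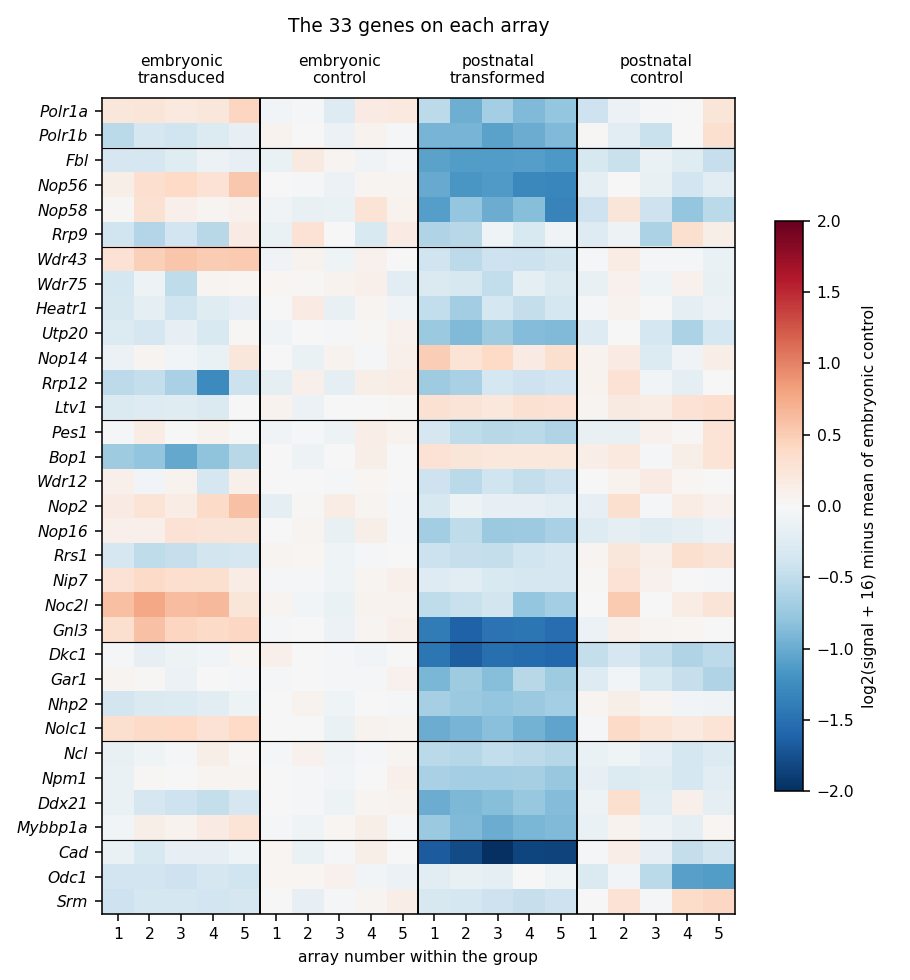
Log2(signal + 16) of the 33 genes on each of the 20 arrays, minus the mean of the 5 embryonic control arrays, with genes grouped by role. The transformed postnatal arrays are blue in most genes, with Cad, Gnl3 and Dkc1 the darkest, and Bop1 is blue on the transduced embryonic arrays alone.

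The same fit gave the interaction, the postnatal change minus the embryonic one, in which age cannot be told apart from transduction as opposed to transformation. The postnatal change was lower than the embryonic one for 23 of the 33 genes and higher for 4, against 20.8% and 18.1% of all genes. It was lower by at least 2-fold for Gnl3 (-1.94 ± 0.08), Nolc1 (-1.53 ± 0.09), Cad (-1.49 ± 0.14), Nop56 (-1.33 ± 0.11) and Noc2l (-1.32 ± 0.15), against 9.75% of all genes. The 4 with a higher postnatal change were Bop1 (0.87 ± 0.10), Odc1 (0.87 ± 0.20), Nop14 (0.33 ± 0.13) and Ltv1 (0.29 ± 0.09), and Odc1 was at 0.55 without postnatal control arrays 4 and 5. Nop14 passed narrowly, and its call was lost in 16 of 30 alternatives, among them the replicate block, no trend and 14 of the 20 that leave out 1 array. For 8 genes the embryonic cells showed a rise and the postnatal cells a fall: Gnl3, Nolc1, Noc2l, Nop56, Wdr43, Nop2, Nop16 and Nip7. They were picked by these opposite signs in the same fit, so the interaction, which passed for each, adds no support. For another 8, Polr1b, Fbl, Heatr1, Rrp12, Rrs1, Nhp2, Ddx21 and Srm, both cell types showed a fall. Among those, the difference itself did not pass for Heatr1 (-0.16 ± 0.11), Rrp12 (0.15 ± 0.23) and Srm (-0.23 ± 0.11). No share of all genes is given for either pattern, so neither count is read as a trait of the 33 genes.

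These changes stand beside a very large one in Mycn. Its brightest probe set, 1425923_at, had 93443, 108760, 110210, 121943 and 116234 in transduced embryonic cells, against 551, 756, 366, 156 and 817 in control, a change of 7.85 ± 0.28 (limma adjusted p = 2.10e-15). One of the control arrays, the fourth, was below background. In transformed postnatal cells it had 122763, 119285, 119549, 110307 and 114248, against 520, 560, 314, 373 and 564 in control, a change of 7.96 ± 0.28 (adjusted p = 2.78e-15). The difference between the 2 responses for this probe set was 0.11 ± 0.40 and did not pass (adjusted p = 0.874).

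The other Mycn probe sets moved much less. Probe set 1417155_at had 2777, 2621, 2534, 2391 and 2526 in transduced embryonic cells against 1494, 1318, 1329, 1342 and 1152 in control (0.95 ± 0.23; limma adjusted p = 0.00247). In transformed postnatal cells it had 2140, 2360, 2499, 2469 and 2138 against 1920, 2805, 2068, 1179 and 669 in control, which did not pass (0.58 ± 0.23; adjusted p = 0.0558). Probe set 1425922_a_at changed by 1.26 ± 0.36 in the embryonic cells and, short of the threshold, by 0.62 ± 0.36 in the postnatal cells. It was above background on 4 of the 5 embryonic control arrays, and without the fifth the embryonic change was 0.85 ± 0.28. The 3 probe sets of this gene thus gave very different sizes of change, and levels of different probe sets are not comparable. On postnatal control arrays 4 and 5 both smaller probe sets were the lowest of their group, and without those arrays their postnatal changes were 0.05 ± 0.11 and 0.19 ± 0.38. The postnatal minus the embryonic change was -0.37 for 1417155_at and -0.64 for 1425922_a_at with all arrays. Without the 2 arrays it was -0.90 ± 0.15 for 1417155_at, which passed (limma adjusted p = 4.24e-05). For 1425922_a_at it was then -1.07 ± 0.50 and did not pass.

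Myc itself, measured by 1 probe set, did not follow Mycn. In the embryonic cells it averaged 9270 ± 458 after transduction and 9428 ± 750 in control and did not pass (-0.02 ± 0.14). Transformed postnatal cells had 8497, 8721, 9425, 7981 and 9038, against 11520, 11245, 13014, 19654 and 21985 in control, a fall of 0.77 ± 0.14 (limma adjusted p = 7.72e-05). All control arrays lay above all transformed arrays, and arrays 4 and 5 were the highest. Without those 2 arrays the fall was 0.45 ± 0.07 (adjusted p = 1.80e-05). Beside the rise of the brightest Mycn probe set at both ages, the median change of the 33 genes was -0.52 in the postnatal and -0.03 in the embryonic cells.

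**Figure D5:**
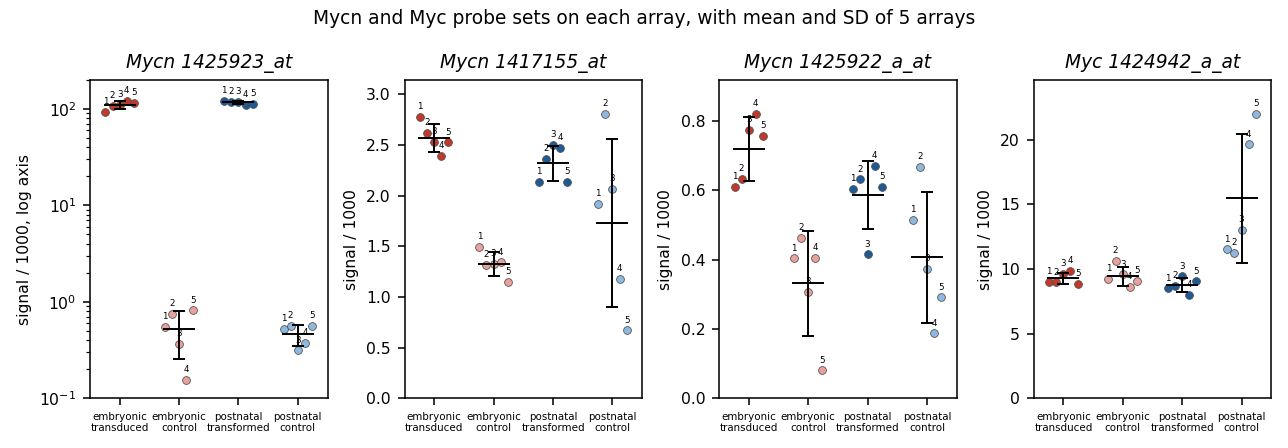
Signal of the 3 Mycn probe sets and the Myc probe set on each array, with the mean and SD of 5 arrays and array numbers, the first panel on a log axis. The first probe set lies between 93443 and 122763 on every transduced and transformed array and at or below 817 on every control array, while Myc is highest on postnatal control arrays 4 and 5.

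The age comparisons reuse the same arrays and also hold any difference in origin, culture or preparation. Between the controls, postnatal cells were lower than embryonic cells in 9 of the 33 genes and higher in 4, against 15.6% and 16.4% of all genes, with a median of -0.04 and no 2-fold change. The largest differences were in Odc1 (-0.62 ± 0.14) and Dkc1 (-0.48 ± 0.06). Without postnatal control arrays 4 and 5, 6 were lower and 1 was higher, against 12.9% and 13.4% of all genes, and the change of Odc1 was -0.29. Between the modified cells, transformed postnatal cells were lower than transduced embryonic cells in 24 of the 33 genes and higher in 3, against 28.2% and 23.9% of all genes. The median was -0.59, against -0.14 over all genes. At least 2-fold lower, as were 13.7% of all genes, were 8 of them: Gnl3 (-1.92), Cad (-1.68), Nop56 (-1.52), Dkc1 (-1.48), Nolc1 (-1.31), Noc2l (-1.13), Nop58 (-1.12) and Polr1a (-1.03). Bop1 alone was at least 2-fold higher (1.01 ± 0.07), as were 11.7% of all genes.

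Of the 33 genes 22 had more than 1 probe set, with 34 further probe sets in all. In the postnatal response 32 of these 34 had the sign of the chosen probe set, 23 passed as lower and 1, of Odc1, as higher, with a median of -0.66. The 2 of opposite sign, of Bop1 (-0.48) and Pes1 (0.19), did not pass. In the embryonic response 9 of the 34 had the opposite sign and 4 of those passed. They were 1428870_at of Nolc1, at -0.68 ± 0.11 against 0.36 for the chosen one, 1416173_at of Pes1 (-1.13 ± 0.12 against 0.04), 1442296_at of Wdr75 (0.72 ± 0.22 against -0.17) and 1430491_at of Bop1. That Bop1 probe set averaged 409 in transduced cells and 174 in control, where it was above background on only 2 of 5 arrays. The embryonic directions of Nolc1, Pes1, Wdr75 and Bop1 therefore depend on the probe set, and the postnatal falls of Nolc1 and Wdr75 do not. Nucleolin shows how far sizes can differ: its probe set 1415772_at changed by -1.55 ± 0.11 in the embryonic and -1.49 ± 0.11 in the postnatal response, against -0.03 and -0.33 for the chosen one.

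Other genes of the same pathways were read from lists chosen by function. Of 103 further ribosome assembly factors 63 fell and 5 rose in the postnatal response, against 22.0% and 20.3% of all genes. Their median was -0.31, and Nop9 (-1.39), Rcl1 (-0.99), Ngdn (-0.88) and Utp14a (-0.85) were among those that fell. Of 15 further RNA polymerase I genes 8 fell and 0 rose, led by Taf1d (-1.11), a subunit of the selectivity factor. Of 43 ribosomal protein genes measured, 25 fell and 0 rose, with a median of -0.31, for example Rps6 (-0.93 ± 0.05) and Rpl14 (-0.73 ± 0.06). In the embryonic response the assembly factors were divided, 31 lower and 27 higher with a median of 0.00, against 18.0% and 21.3% of all genes. There the RNA polymerase I genes gave 2 lower and 6 higher, and the ribosomal proteins 2 lower and 9 higher. Without postnatal control arrays 4 and 5 the postnatal response gave 62 lower and 6 higher assembly factors, 6 and 0 RNA polymerase I genes and 26 and 0 ribosomal proteins.

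The metabolic neighbours of Cad and Odc1 differed. Of 16 genes of pyrimidine and purine synthesis 12 fell and 0 rose in the postnatal response, against 22.0% and 20.3% of all genes. Among those that fell were the phosphoribosyl pyrophosphate synthetase Prps1 (-1.61), the CTP synthetase Ctps (-0.75) and Dhodh (-0.61), which acts after Cad in pyrimidine synthesis. Of 13 polyamine genes 3 fell, Smox (-0.45 ± 0.11) among them, and 3 rose, near those shares of all genes. Sat1, which acetylates polyamines for breakdown or export, averaged 57419 in transformed cells and 5218 in control (3.47 ± 0.09), and the Odc1 regulators Oaz2 (0.98 ± 0.07) and Azin1 (0.50 ± 0.07) rose with it. Of 33 other classic Myc targets 24 fell and 5 rose, with Prmt5 (-1.81), Apex1 (-1.40) and Cdk4 (-1.09) lower and the folate enzyme Mthfd2 (2.39) higher. With postnatal control arrays 4 and 5 left out, 13 nucleotide genes fell and 0 rose, 3 polyamine genes fell and 3 rose, and 25 Myc targets fell and 5 rose. At an unadjusted p under 0.05 in limma, the genes that were higher numbered 0 too in the RNA polymerase I, ribosomal protein and nucleotide lists with all arrays.

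Position and RNA quality were read beside these results. Genes of chromosome 14 read low in the transformed cells, with a median of -0.49 over 647 genes, of which 285 fell and 37 rose, against 0.01 over genes elsewhere (-0.51, 280 and 37 without postnatal control arrays 4 and 5). Gnl3 is the 1 gene of the 33 on that chromosome, where Nop9, Ngdn, Prmt5 and Apex1 also lie, and the part of position in their changes was not tested. Over the 32 genes on other chromosomes the postnatal median was -0.51, with 27 lower and 2 higher. The log2 ratio of 3' to 5' Gapdh control probe sets lay between -0.59 and -0.48 on transformed and between -0.51 and -0.41 on postnatal control arrays, and its part in the postnatal changes was not tested. In the embryonic cells it lay between -0.35 and -0.26 after transduction and between -0.43 and -0.32 in control. The same ratio for Actb separated the embryonic groups, with 0.39 to 0.45 after transduction and 0.30 to 0.35 in control, and overlapped in the postnatal cells, with 0.23 to 0.32 on transformed and 0.20 to 0.29 on control arrays. Its part in the embryonic changes was not tested.

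Markers of cell types moved as well. Of all genes 22.0% fell and 20.3% rose in the postnatal response, and 18.0% fell and 21.3% rose in the embryonic one. In the postnatal response 5 of 9 glial progenitor markers fell and 1 rose, and their summed signal was 246806 to 259835 in transformed cells and 305285 to 370774 in control. Of 6 mature oligodendrocyte markers 3 fell, with sums of 28720 to 31110 in transformed cells and 38162 to 117955 in control, and Mog was below background on every array. Of 8 astrocyte markers 4 fell and 2 rose, with sums of 131604 to 136364 in transformed cells and 56659 to 159033 in control. Of 9 neuron markers 5 fell and 3 rose, and their summed signal was higher on every transformed array, with 94319 to 100283 against 76782 to 86172 in control, most of it from Gap43 (means of 50374 in transformed cells and 18760 in control) and Map2 (32015 and 45660). In the fit that leaves out postnatal control arrays 4 and 5 the glial progenitor and astrocyte counts were as with all arrays, while 4 neuron markers fell and 3 rose and 2 oligodendrocyte markers fell. In the embryonic response 7 of 9 glial progenitor markers fell, with sums of 150148 to 161844 in transduced cells and 261007 to 288525 in control. There all 9 neuron markers fell, with sums of 23688 to 25839 in transduced cells and 86820 to 92145 in control. Of the astrocyte markers 3 fell and 1 rose, with sums of 101781 to 119272 in transduced cells and 88888 to 103766 in control. Of the mature oligodendrocyte markers 1 fell, and their sums did not overlap, with 11447 to 15320 in transduced cells and 24192 to 28218 in control. Microglial, endothelial and fibroblast or pericyte markers were dim. Of 9, 7 and 8 such genes 2, 2 and 0 rose and 0, 1 and 2 fell in the embryonic response, the same numbers as at an unadjusted p under 0.05. In the postnatal response 1, 1 and 0 rose and 0, 0 and 1 fell, against 1, 2 and 1 higher and 0, 0 and 1 lower at an unadjusted p under 0.05. The summed fibroblast and pericyte signal was 3869 to 4989 in transduced cells and 9752 to 21944 in embryonic control, most of it from Acta2, with means of 2858 in transduced cells and 12604 in control. The part of these shifts in the changes of the 33 genes was not tested.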

How the data were processed

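Per the labels, total RNA of 20 samples was measured, 1 per array, with 5 in each of 4 groups. The authors deposited linear intensities for 45101 probe sets, with software and normalization not given in the sources used here. Trimmed by 2% at each end, every array averaged 2500, and the intensities were used as deposited. Of the probe sets, 64 were controls, 34945 carried 1 gene symbol, 932 several and 9160 were not listed in the platform annotation. For each of 18193 genes the brightest single-symbol probe set was used, and 9010 genes had others. RefSeq (GRCm38.p6) placed 18145 of the symbols on chromosomes. Detection flags were not used. Background was the 95th percentile on an array of 15 control probe sets that match bacterial genes.

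The scale was log2(signal + 16), on which changes of dim genes are understated. Limma 3.58.1 in R 4.3.3 (files read with data.table, version 1.17.8) fitted 4 group means over 20 arrays, with lmFit and eBayes with an intensity trend, two-sided. Benjamini-Hochberg adjustment ran over all genes, or over all single-symbol probe sets where a further probe set is quoted. The script was tested on simulated data. The 5 arrays per group limit the precision. The 33 genes, the 15 other lists, the rule for named genes (all 33, every Mycn probe set, Myc, Mki67, and up to 4 genes with the smallest p from each list described) and the leaving out of postnatal control arrays 4 and 5 were chosen with earlier results of these data known. Lists are described by counts and medians, without a test of their own. The alternatives were offsets of 1 and 64, quantile normalization, centring on the 75th percentile, the mean of all probe sets of a gene, a filter on dim genes, array weights, a fit of the compared groups only, no trend, a replicate block, and leaving out arrays. Promoter windows came from RefSeq.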

Additional observations from a re-analysis of the deposited data

Results flagged for a closer look

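Five-array groups were examined for a single array far from the others, by the gap to its neighbour as a share of the range (Dixon's criterion at 95%), and 8 of 132 groups met it where chance gives about 7. In transduced embryonic cells these were array 5 for Polr1a (3594, others 3048 to 3177), Rrp9 (3055, others 1807 to 2086) and Ltv1 (7161, others 5840 to 6057), array 2 for Nop58 (8419, others 6959 to 7304), array 4 for Rrp12 (475, others 743 to 872) and array 1 for Npm1 (90730, others 99769 to 103257). In embryonic control array 5 was low for Wdr75 (7914, others 9467 to 9915) and high for Npm1 (106562, others 95992 to 98602).

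The postnatal and the embryonic response differed by at least 2-fold, with the interaction passing in limma, for 5 genes. The postnatal change minus the embryonic one was -1.94 for Gnl3, -1.53 for Nolc1, -1.49 for Cad, -1.33 for Nop56 and -1.32 for Noc2l. All 5 were lower on each of the 5 transformed than on each of the 5 postnatal control arrays, and of the 5, Cad alone did not pass in the embryonic response.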

How the results depend on the processing

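The number of the 33 genes that fell in the postnatal response stayed between 26 and 28 with each array left out in turn, and was 26 without postnatal control arrays 4 and 5. The number that rose, 2 with all arrays, was 1 without those 2 arrays and 1 in a fit of the compared groups only. With centring on the 75th percentile the median of the 33 genes was -0.09 in the embryonic response, -0.41 for the difference of responses and -0.52 between the modified cells. Between the controls, the number higher in postnatal cells, 4 as reported, was 2 with that centring, 2 with array weights, 1 with the compared groups only, 1 without arrays 4 and 5 and 7 with the mean of all probe sets, and ran from 2 to 4 with single arrays left out (2 without embryonic control array 2 or postnatal control array 4 or 5). The number higher by at least 2-fold ran from 0 to 1 for both the difference of responses (1 without postnatal control array 2) and the modified cells (0 without transduced array 3 or transformed array 1, and 0 with the mean of probe sets). Averaging probe sets turned the sign of Pes1 (-0.55 embryonic, 0.38 difference, 0.60 modified cells), Bop1 (0.29 embryonic, -0.48 difference), Nop16 (-0.01 embryonic, 0.01 controls) and Nolc1 (-0.02 embryonic); probe sets of these genes differ. Among single genes, calls were lost most often between the controls for Srm (19 of 30 alternatives) and Nop58 (18), in the difference of responses for Nop14 (16) and Rrs1 (12), in the embryonic response for Odc1 (11 of 31) and in the postnatal response for Nop2 (8) and Wdr75 (5). Calls were gained most often in the embryonic response, for Utp20 (6 of 31) and Polr1a (4). The other lists and the Myc and Mycn probe sets were examined without postnatal control arrays 4 and 5, and the Mycn probe sets without embryonic control array 4 or 5, as alternatives chosen after seeing the data. For the other moves the cause was not tested. Same-numbered arrays of control and modified groups had correlations of deviations from -0.053 to 0.032, and 1 of 10 arrays correlated best with its own number, so the numbers were not taken as pairs. With the number as a replicate block 28 of the 33 genes fell and 2 rose in the postnatal response, 10 fell and 8 rose in the embryonic one, and 23 were lower and 3 higher in the difference. The block cannot be fitted to the age comparisons. Signals of all 33 genes lay above background, so dimness did not limit them.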

Other observations

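Partners and rivals of Mycn in the Max network changed with it in part. In the embryonic response the Max-binding repressors Mxi1 (1.69 ± 0.12), Mga (0.89 ± 0.12) and Mnt (0.65 ± 0.18) rose in transduced cells, and of 13 genes of the network 4, Mycn included, rose and 0 fell (0 also at an unadjusted p under 0.05). In the postnatal response 7 of the 13 fell and 1, Mycn, rose, with Mga at -0.91 ± 0.12 and Mycl at -2.49 ± 0.46 (limma, Benjamini-Hochberg adjusted). Of all genes 18.0% fell and 21.3% rose in the embryonic response, and 22.0% fell and 20.3% rose in the postnatal one. Without postnatal control arrays 4 and 5, 4 of the 13 fell and 3 rose in the postnatal response, against 22.2% and 21.1% of all genes. The embryonic counts moved too in that fit, in which all groups share 1 estimate of the spread. There 2 of the 13 fell and 6 rose in the embryonic response, against 3699 and 4297 of all 18193 genes. The difference between the responses passed for Mga (-1.81 ± 0.16), Mxi1 (-1.82 ± 0.17) and Mnt (-1.17 ± 0.26).

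Among single ribosomal protein genes Rpl12 stood out in the embryonic cells. Its mean signal was 6862 in transduced cells and 1910 in control, a change of 1.84 ± 0.12, against a median of 0.08 over the 43 ribosomal protein genes. Arrays of a group varied less in the 33 genes than in genes at large. The median SD of log2 values was 0.10 in transduced and 0.08 in control embryonic cells, and 0.08 in transformed and 0.14 in control postnatal cells. Over all genes it was 0.25, 0.23, 0.20 and 0.36 in the same groups. The comparison was not matched for signal level. All 33 genes lay above background on every array, while 64.3% to 76.4% of the probe sets other than controls did on an array. The part of signal level in this difference was not tested.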
